A study of Mus musculus with 8 samples.

Results

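A group of 8 genes that make nitric oxide or supply its substrate and cofactor was followed across the cells of mouse islets, chosen by symbol from 30406 genes listed in both replicates. They are *Nos2*, the inducible nitric oxide synthase (iNOS), *Ass1* and *Asl*, the 2 enzymes that remake arginine from citrulline, *Gch1*, *Pts* and *Spr*, the 3 enzymes that make the cofactor tetrahydrobiopterin, and *Slc7a1* and *Slc7a2*, which carry arginine into the cell. All 8 symbols were found. Islets isolated from C57BL/6 mice (C57BL6/J in the methods), with the tissue labelled as pancreas, were left untreated or cultured for 18 h with IL-1β and IFN-γ, with both cytokines and NMMA, or with NMMA alone, and their cells were sequenced by a droplet method. Each of 2 replicates was 1 pool of islets of adult male mice divided over the 4 conditions, so that a library is not 1 animal, and there are 8 libraries. The 4 conditions share strain, dissociation and time in culture, and isolated islets hold only the endothelial cells and macrophages that came with them and no blood supply.

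iNOS turns arginine into nitric oxide and citrulline, and it needs tetrahydrobiopterin to do so. In rodent β-cells, IL-1β and IFN-γ together are known to induce *Nos2*. NMMA is an arginine analogue that blocks nitric oxide synthases, so a comparison of cytokines with and without NMMA asks what changes when the enzyme is made but its product is not. The carriers decide how much arginine enters.

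The droplet method reads 1 end of each RNA and counts molecules by a unique molecular identifier (UMI). The 8 libraries held between 26549922 and 50731370 UMIs, and 10876 of 17426 barcodes were kept. Median UMIs per kept barcode were 18911 (untreated), 23701 (cytokines), 24136 (cytokines with NMMA) and 23736 (NMMA alone) in replicate 1. In replicate 2 they were 3983, 15904, 6246 and 14150, so the untreated library and the library with cytokines and NMMA of replicate 2 stood apart. Of the 2448 barcodes that received no cell type name these libraries held 849 and 510, and the library with NMMA alone of replicate 2 held 494. No pair of libraries shared more than 2 barcodes.

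Cells were clustered without these genes and named from known markers as β-like, α-like, δ-like, macrophage-like and endothelial-like, written here as β-cells, α-cells, δ-cells, macrophages and endothelial cells. There were 6338 β-cells, 642 α-cells, 331 δ-cells, 324 macrophages and 283 endothelial cells. All 8 β-cell markers, all 7 α-cell markers and all 11 macrophage markers were detected in every library. In δ-cells *Lepr* was at 0, as was *Ghsr* in the library with cytokines of replicate 2, and in endothelial cells *Cldn5* was at 0 in the library with cytokines of replicate 1. δ-cells were few after cytokines, with 8 cells in replicate 1 and 12 in replicate 2. The library with 8 cells was left out of every δ-cell test below, so that tests of δ-cells given cytokines rest on 1 library. Their p values, also those with the replicate block, take the spread between libraries from the other conditions.

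Most cells of a class lay in different clusters with and without cytokines. Clusters 0, 2, 6 and 11 held 3533 of 3552 β-cells of libraries without cytokines and 341 of 2786 with them, and clusters 1, 4 and 9 held the rest. Cluster 6 did not follow the cytokines, with 133 untreated β-cells, 169 with cytokines, 127 with NMMA added and 172 with NMMA alone. It was led by *Hspa1a*, *Hspa1b* and *Dnajb1*, which encode heat shock proteins, and its part in the β-cell values below was not tested. Clusters 1, 4 and 9 followed the replicate too. In replicate 1, clusters 1 and 9 held 1039 and 30 β-cells with cytokines alone and 112 and 472 with NMMA added, and cluster 4 held 0. In replicate 2, cluster 4 held 418 with cytokines alone and 341 with NMMA added, so that the 2 arms lay in different clusters in replicate 1 and in the same one in replicate 2. Subclusters 1 and 4 held 311 of 329 α-cells without and 2 of 313 with cytokines, and subclusters 0 and 5 held the others. Of the α-cells with cytokines alone 105 of 119 were in subcluster 5, and of those with NMMA added 179 of 194 were in subcluster 0. Subclusters 6 and 8 held 214 of 215 δ-cells without and 3 of 116 with cytokines, the others being in subcluster 7. Of the untreated δ-cells, 80 of 84 in replicate 1 were in subcluster 6 and 42 of 44 in replicate 2 were in subcluster 8. With NMMA alone these were 36 of 38 and 45 of 49. The α-cell marker *Gcg* was far higher in subcluster 8 than in subcluster 6, and *Sst* was lower. The part of α-cell RNA in the δ-cell values below was not tested. Cluster 14 held 181 of 183 macrophages without and 37 of 141 with cytokines, the others being in cluster 17, and cluster 15 held 197 of 197 endothelial cells without and 1 of 86 with cytokines, the others being in cluster 18. A class is thus a union of clusters joined by their markers, and a change of level within cells and a change in which cells the class holds cannot be told apart.

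Values are counts of a gene's UMIs per 1000000 UMIs of the cell class in a library (CPM), and they compare 1 gene between samples and not genes with each other. The UMIs were summed over a class in each library and tested with edgeR's quasi-likelihood test on all genes of the class, and a gene was called at a Benjamini-Hochberg adjusted p under 0.05. The libraries of a replicate share 1 pool, and adjusted p values from a fit with the replicate as a block are given where they change a call. As values are relative to all UMIs of a class, fewer RNA molecules of a gene and more of the others cannot be told apart.

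*Nos2* lies on chr11:78920787-78960254 (plus strand, GRCm38). The study's PCR primers for it are shown because their product lies inside the transcript, while the UMIs are read at its 3′ end. Both match the reference exactly:

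*Nos2* forward: cgagacttctgtgacacacagc

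*Nos2* reverse: catctcctggtggaacacaggg

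The forward primer lies at chr11:78940115-78940136 in exon 10 of 27 and the reverse primer at chr11:78944797-78944818 in exon 12, both in coding sequence, and they span 300 bases of the transcript. The reverse primer lies 2515 bases from the 3′ end of the 4192-base transcript, where the UMIs are read.

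The other genes lie on chr2:31470207-31520672 (*Ass1*), chr5:130011258-130029247 (*Asl*), chr14:47153895-47189413 (*Gch1*), chr9:50521617-50528724 (*Pts*), chr6:85130176-85137766 (*Spr*), chr5:148327410-148399904 (*Slc7a1*) and chr8:40862396-40922308 (*Slc7a2*). RefSeq promoter sequence (GRCm38.p6) was at hand for 5 of the 8, and the 250 bases before the start are shown for the carrier and the cofactor enzyme that both rose with cytokines in β-cells. Capitals mark matches, on either strand, to GGG and CC with any 5 bases between them, the core letters of a site for NF-κB, the factor that IL-1β activates; overlapping matches are merged.

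*Gch1*, chr14:47189414-47189663, minus strand: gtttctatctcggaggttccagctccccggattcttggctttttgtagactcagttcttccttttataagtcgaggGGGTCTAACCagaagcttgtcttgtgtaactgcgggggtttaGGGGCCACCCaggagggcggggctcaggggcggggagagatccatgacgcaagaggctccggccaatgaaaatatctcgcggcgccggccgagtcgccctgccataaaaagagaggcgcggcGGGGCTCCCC

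*Slc7a1*, chr5:148399905-148400154, minus strand: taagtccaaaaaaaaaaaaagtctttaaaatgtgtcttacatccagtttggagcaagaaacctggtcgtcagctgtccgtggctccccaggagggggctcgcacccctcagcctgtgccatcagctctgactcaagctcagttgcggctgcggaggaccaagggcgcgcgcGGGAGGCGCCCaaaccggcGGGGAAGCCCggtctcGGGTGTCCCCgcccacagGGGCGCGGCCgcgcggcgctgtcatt

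*Gch1* held 3 matches and *Slc7a1* 5, and a second *Slc7a1* start in the same table held 0. The windows of *Ass1*, *Pts* and *Spr*, which did not pass in β-cells with cytokines, held 6, 1 and 1. Those of *Ass1* and *Pts* reach into the gene as placed above. All *Ass1* matches but the one nearest the window's end lie before the gene, and the *Pts* match lies inside its gene. Matches were thus found both in genes that rose and in genes that did not pass. In all, 45.8% of 32851 promoters of this length held at least 1. A pair of GAAA with any 2 bases between them, the letters of a site for interferon regulatory factors, was in neither window and in 2.98% of promoters. A match is a description of letters and not a site in use.

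In β-cells *Nos2* went from next to nothing to a clearly measured level. It had 0.0284 CPM in untreated replicate 1, which was a single UMI, and 0 in untreated replicate 2. With cytokines it had 173 in replicate 1 and 146 in replicate 2. With cytokines and NMMA it had 471 and 486. With NMMA alone it had 0.0503 and 0. The groups with cytokines did not overlap those without. Against the single untreated UMI, 7457 UMIs with cytokines were an 8274-fold ratio, with a 95% counting interval of 1484 to 326833, and the edgeR adjusted p was 3.7e-07. *Nos2* was higher with cytokines and NMMA than with cytokines alone, by 1.38 ± 0.20 (log2, SE, n = 2 libraries a group, edgeR adjusted p = 0.00362), in both replicates.

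**Figure D1:**
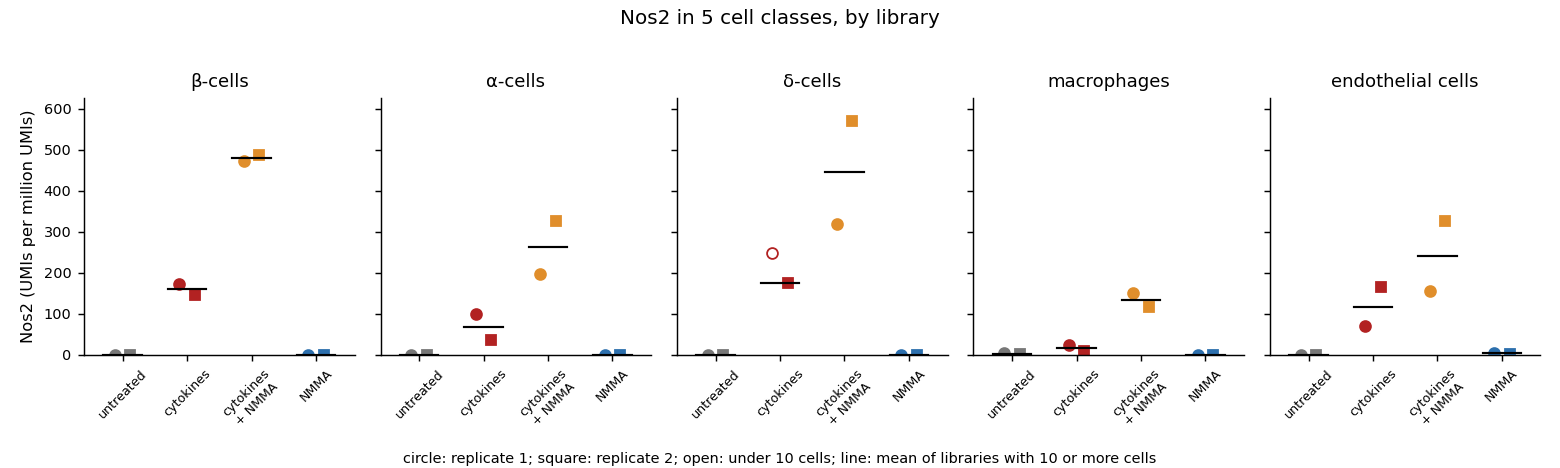
*Nos2* in CPM (vertical axis) in each of 5 cell classes under the 4 conditions. Circles are replicate 1, squares are replicate 2, open symbols are sums of fewer than 10 cells and lines are means of libraries with 10 or more cells. In β-cells the libraries with cytokines lie at 146 and 173 and those with cytokines and NMMA at 471 and 486.

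*Nos2* was also measured in every other class after cytokines. In α-cells it had 98.5 and 35.4 CPM (replicates 1 and 2) with cytokines and 198 and 326 with cytokines and NMMA, and 0 in all 4 libraries without cytokines. Over the group, that is at least 59.4-fold higher with cytokines and at least 269-fold with cytokines and NMMA, taking 3 UMIs as the limit for a count of 0. The groups did not overlap, yet neither change passed by edgeR, with an adjusted p of 0.108 for cytokines and 0.133 for cytokines with NMMA, while DESeq2 gave 3.23e-06 and 2.69e-08. In δ-cells it had 174 in the library tested, 248 in the library of 8 cells, and 319 and 570 with NMMA added, against 0 without cytokines, which is at least 92.7-fold and at least 228-fold (edgeR adjusted p = 0.0377 and 0.00994). In the library tested with cytokines 18 of the 35 UMIs came from 1 cell, and 5 of 12 cells had any. The difference in α-cells between cytokines with and without NMMA was 1.63 ± 0.82 (log2, SE, edgeR adjusted p = 0.388), and that in δ-cells 1.45 ± 0.58 (adjusted p = 0.388 and 1.17e-08 with the replicate block).

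Macrophages, which are known for iNOS in other tissues, had the lowest mean *Nos2* level of the 5 classes with cytokines alone. It was 23.7 and 7.85 CPM with cytokines, from 11 and 3 UMIs, against 2.81 and 1.39 untreated, from 1 UMI each. The ratio was 8.90, with a counting interval of 2.04 to 80.7, and edgeR's adjusted p was 0.0503 (0.0291 with the block). With NMMA added it was 150 and 117, which was a ratio of 70.1 to untreated (19.0 to 586, adjusted p = 1.6e-05). Here the addition of NMMA to cytokines gave 2.99 ± 0.43 (log2, SE, edgeR adjusted p = 0.0174), a call lost without replicate 1 of cytokines with NMMA, without replicate 2 of cytokines, and with DESeq2 (adjusted p = 0.0776).

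In endothelial cells *Nos2* had 69.9 and 164 with cytokines, 154 and 325 with cytokines and NMMA, 0 and 0 untreated and 3.44 and 1.85 with NMMA alone. The increase was at least 51.6-fold with cytokines and at least 108-fold with NMMA added (edgeR adjusted p = 0.00152 and 0.000381). Of the 15 and 64 UMIs with cytokines, 11 and 36 came from 1 cell each. The groups with and without NMMA overlapped, though within each replicate the library with NMMA added was the higher. The library with cytokines and NMMA of replicate 1 held all 11 macrophage markers, at 1412 CPM summed and with *C1qa* the highest, against 1.85 to 15.9 CPM in the other 7 endothelial libraries. Its *Nos2* level, 154, was below the 325 of the other library of that group, and the part of macrophage RNA in it was not tested.

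RNA set free by broken β-cells can enter any droplet, and insulin measures how much did. If all insulin UMIs of a class had come with β-cell RNA, that RNA would have brought 20.4 of the 84 *Nos2* UMIs of α-cells with cytokines in replicate 1 and 24.7 of the 50 in replicate 2. With NMMA added it would have brought 37.1 of 334 and 166 of 672. In δ-cells the figures were 3.36 of 35 with cytokines, and 14.4 of 301 and 14.1 of 419 with NMMA added. In macrophages they were 0.443 of 11 and 0.920 of 3, then 1.81 of 55 and 2.52 of 61, and in endothelial cells 0.210 of 15 and 0.306 of 64, then 0.858 of 34 and 1.83 of 164. The measured *Nos2* UMIs were above this yardstick in each of these libraries. The margin was narrow in α-cells with cytokines of replicate 2, at 50 against 24.7. The part of β-cell RNA in them was not tested.

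Not every cell had a *Nos2* UMI. To compare libraries of different depth, each cell was thinned at random to the same number of UMIs within its class. At 10500 UMIs, 48.5% of 1103 β-cells with cytokines in replicate 1 (exact interval 45.5 to 51.5%) and 43.8% of 473 in replicate 2 (39.2 to 48.4%) had *Nos2*. With NMMA added the shares were 67.0% of 622 and 59.3% of 351. The mean share was 46.1% ± 3.35 (SD, n = 2) with cytokines and 63.2% ± 5.50 with NMMA added, and the groups did not overlap. In untreated libraries it was 0.0317%. Without thinning the means were 56.4% and 69.9%. With 2 libraries a group the shares were not tested.

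In α-cells, thinned to 9000 UMIs, the shares with cytokines were 31.0% and 12.1%, and with NMMA added 29.4% and 51.9%, so these groups overlapped. Without thinning they were 38.8% and 27.1%, then 42.9% and 58.3%, and did not overlap. In δ-cells, at 7000 UMIs, 5 of 11 cells with cytokines and 66.1% and 62.9% with NMMA added had *Nos2*. At the depth that all classes share, 1500 UMIs, the shares with cytokines and NMMA were 34.9% and 29.1% in β-cells, 18.8% and 24.7% in α-cells, 37.9% and 40.5% in δ-cells, 28.0% and 10.5% in macrophages and 26.7% and 21.2% in endothelial cells. At this depth α-cells lay below β- and δ-cells in both replicates, and macrophages and endothelial cells did so too.

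Beside *Nos2*, the β-cells changed the arginine carriers in opposite directions. *Slc7a1*, the widespread carrier CAT-1, had 19.4 and 22.9 CPM untreated, 29.5 and 29.1 with cytokines, 36.1 and 35.8 with cytokines and NMMA and 29.6 and 33.2 with NMMA alone, which lay at or above the level with cytokines. *Slc7a2*, the carrier CAT-2, had 77.1 and 68.1 untreated, 21.0 and 22.8 with cytokines, 28.8 and 31.3 with NMMA added and 58.5 and 59.8 with NMMA alone. Neither gene's libraries with cytokines overlapped its untreated ones. *Slc7a1* rose by 0.69 ± 0.12 (log2, SE, edgeR adjusted p = 0.00161) and *Slc7a2* fell by 1.51 on the log2 scale (SE 0.13, adjusted p = 4.42e-05). With cytokines and NMMA the changes from untreated were 0.78 ± 0.12 (adjusted p = 0.00167) and −1.27 ± 0.13 (adjusted p = 0.000175). These comparisons share the untreated libraries.

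*Gch1*, the first and rate-limiting enzyme of tetrahydrobiopterin synthesis, was already present in untreated β-cells at 335 and 358 CPM. It had 419 and 374 with cytokines, 513 and 452 with cytokines and NMMA and 387 and 379 with NMMA alone. All libraries with cytokines lay above the untreated ones. Those with NMMA alone did so too and lay within the range of cytokines alone. The change was 0.42 ± 0.14 with cytokines (log2, SE, edgeR adjusted p = 0.0392) and 0.49 ± 0.14 with NMMA added (adjusted p = 0.0370). The first call ended with library totals in place of TMM scaling, at 0.20 and an adjusted p of 0.275, and 6 of 8 fits that left out 1 library did not make it. The second call was also lost in 6 of 8 such fits. *Pts*, which acts after *Gch1*, had 95.9 and 73.2 untreated, 61.5 and 45.5 with cytokines and 102 and 68.0 with NMMA added. Its change with cytokines was −0.44 ± 0.27 (adjusted p = 0.217 and 0.000477 with the replicate block), and the change on adding NMMA was 0.46 ± 0.27 (adjusted p = 0.267 and 0.000979 with the block). *Spr*, the last enzyme, had 26.1 and 23.8 untreated and 21.7 and 16.5 with cytokines and passed in no β-cell comparison.

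Neither citrulline enzyme passed in β-cells without the replicate block. *Ass1*, which joins citrulline to aspartate, had 4.77 and 2.70 CPM untreated, 5.54 and 5.20 with cytokines and 5.51 and 4.72 with NMMA added. Its change with cytokines was 0.71 ± 0.28 (log2, SE, edgeR adjusted p = 0.0667 and 0.00518 with the block). *Asl*, which releases arginine from the product, had 16.8 and 13.6 untreated and 14.0 and 10.9 with cytokines, and its groups overlapped.

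**Figure D2:**
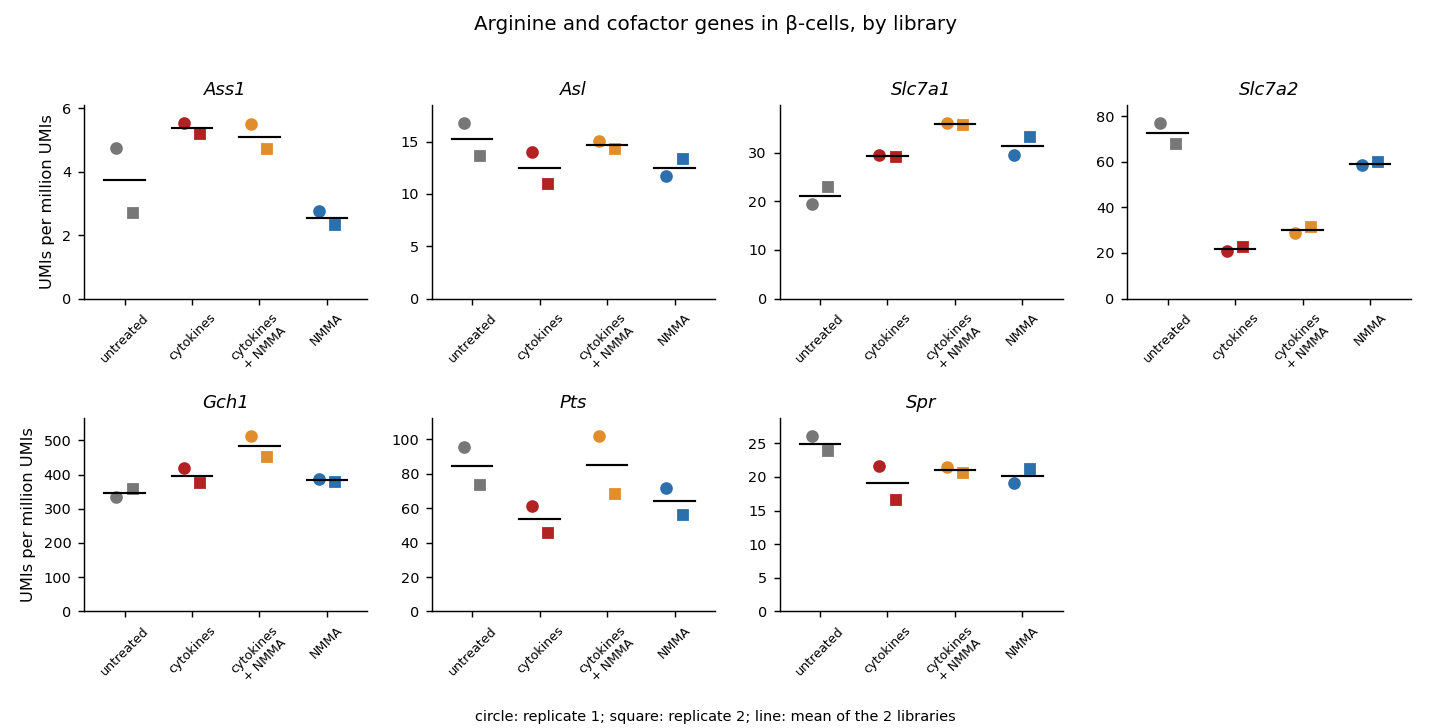
The 7 other genes measured in β-cells in CPM (vertical axes, each from 0) under the 4 conditions. Circles are replicate 1, squares replicate 2 and lines the mean of the 2 libraries. *Slc7a2* is lower, and *Slc7a1* is higher, in the libraries with cytokines than in the untreated ones.

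In all, 4 of 8 genes tested passed in β-cells with cytokines, 3 higher and 1 lower, where 46.2% of 12770 genes passed (23.8% higher, 22.4% lower). The share is thus near the background of this comparison. The median change of the 8 was 0.17 (log2), against 0.00 over all genes. With library totals in place of TMM the median of all genes moved by −0.22, and the calls split 1977 higher and 3937 lower, from 3034 and 2861. With cytokines and NMMA against untreated, the same 4 of 8 passed, where 22.6% of all genes did (12.9% higher, 9.73% lower). Between cytokines with and without NMMA 1 of 8 passed, *Nos2*, where 19.4% did (10.4% higher, 8.99% lower), and the calls of all genes split 1330 higher and 1148 lower, or 2346 and 405 with library totals. With the replicate block the count for cytokines was 6 of 8, where 62.8% of all genes passed with the block.

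NMMA alone, against untreated, gave 0 calls among 12770 genes in β-cells by edgeR (0%), with 932 at an unadjusted p under 0.05 and 9 calls by DESeq2. With the block 431 genes passed (3.38%). *Slc7a1* was then higher by 0.59 (log2, adjusted p = 0.0062), and *Pts*, at 71.6 and 56.2 against 95.9 and 73.2, lower by 0.39 (log2 −0.39, adjusted p = 0.0286). In the other classes edgeR called 0 genes for NMMA alone, with 331 (α), 286 (δ), 139 (macrophage) and 148 (endothelial) at an unadjusted p under 0.05 and 0 by DESeq2, and 5, 8, 1 and 0 with the block.

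β-cells with and without a *Nos2* UMI were also set side by side within the libraries given cytokines, after thinning. There were 530 cells with and 573 without it with cytokines in replicate 1, and 209 and 264 in replicate 2, and with NMMA added 427 and 195, then 217 and 134. Thinning draws UMIs at random, and the cells with *Nos2* in this split differ slightly in number from those behind the shares above. Of the 7 other genes tested, 0 passed by edgeR, where 8.23% of 9269 genes did, and 2 had an unadjusted p under 0.05, *Pts* (0.19, log2, adjusted p = 0.237) and *Slc7a2* (−0.34, adjusted p = 0.122). Of the wider list described below 33 genes were tested, of which 4 were higher in the cells with *Nos2* (*Irf1*, *Nfkb1*, *Cebpb* and *Hif1a*) and 1 was lower (*Srm*), where 5.29% and 2.95% of all genes were. *Nos2* itself chose these cells and is not counted.

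*Slc7a2* was highest in α-cells, at 165 and 195 CPM untreated, against 77.1 and 68.1 in β-cells (0.75 ± 0.14, log2, SE, edgeR adjusted p = 5.2e-06, a call lost without untreated replicate 2) and 26.7 and 44.4 in δ-cells (−1.73 ± 0.21 against β-cells). In α-cells it had 37.5 and 54.6 with cytokines and 68.6 and 57.3 with NMMA added. The changes were −1.47 ± 0.22 (adjusted p = 0.000107) and −1.40 ± 0.21 (adjusted p = 0.000128), and the difference of its cytokine effect between α- and β-cells was 0.10 with an interval of −0.34 to 0.55. In δ-cells it went to 1 UMI in 12 cells from 55 UMIs untreated, 6.92-fold lower with a counting interval of 1.19 to 278 (edgeR adjusted p = 0.262 and 0.0154 with the block). Summed α-cell markers in δ-cells, led by *Gcg*, were 7970 and 35709 CPM untreated, 7914 in the library tested with cytokines, 6144 and 12335 with NMMA added and 13098 and 44247 with NMMA alone. In replicate 2 they moved with *Slc7a2*, and their part in its change was not tested. Subcluster 8, with most δ-cells without cytokines of replicate 2, had *Gcg* at 43204 CPM and *Sst* at 49390. In subcluster 6, with most of those of replicate 1, they were at 724 and 87478.

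Among the tetrahydrobiopterin enzymes in α-cells, *Spr* and *Gch1* passed with cytokines and *Pts* did so with the replicate block only. *Spr* had 26.7 and 28.1 CPM untreated, 2.34 and 9.21 with cytokines and 20.7 and 21.8 with cytokines and NMMA. Over each group these were 83, 15 and 80 UMIs, and the 2.34 of replicate 1 lay below what 3 UMIs would give in that library. It fell by 1.61 on the log2 scale with cytokines (SE 0.40, edgeR adjusted p = 0.00725, DESeq2 0.0716), a call lost without cytokines replicate 1. Leaving out 1 library at a time gave changes between −2.91 and −1.17. *Pts* had 80.2 and 78.1 untreated, 38.7 and 36.8 with cytokines and 97.0 and 97.1 with NMMA added. For both genes the libraries with cytokines alone lay below all others. With NMMA added to cytokines *Pts* was higher by 1.003 ± 0.22 (adjusted p = 0.00618, lost without cytokines replicate 2) and *Spr* by 1.37 ± 0.41 (adjusted p = 0.0359 and 0.183 by DESeq2), the latter a call that 7 of 8 fits without 1 library lost. In those 8 fits this change of *Spr* ran from 0.94 to 2.67. *Gch1* had 230 and 193 untreated, 212 and 245 with cytokines and 297 and 295 with NMMA added. Both changes of *Gch1* from untreated were 0.61 ± 0.19 (adjusted p = 0.0272 and 0.0493), and with library totals the first was 0.11 (adjusted p = 0.687) and the second had an adjusted p of 0.161. Of 8 fits that left out 1 library, 4 lost the first call and 6 the second.

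β-cell RNA in α-cells moved with these changes. The 8 β-cell markers summed to 9227 and 21045 CPM in untreated α-cells, 55098 and 52348 with cytokines, 26787 and 72004 with cytokines and NMMA and 11310 and 11147 with NMMA alone, with *Ins2* the highest. By the insulin yardstick β-cell RNA would have brought 6.32 of 284 and 28.4 of 344 *Gch1* UMIs of α-cells untreated, 49.5 of 181 and 63.4 of 346 with cytokines, and 40.4 of 502 and 154 of 608 with NMMA added. The part of this RNA in the change of *Gch1* was not tested.

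In α-cells 3 of 7 genes tested passed with cytokines, 1 higher and 2 lower, where 22% of 9729 genes did (13.4% higher, 8.59% lower). The median of the 7 was −0.34 (log2), against −0.02 over all genes, whose median moved by −0.49 with library totals and whose calls then split 632 higher and 2593 lower, from 1304 and 836. With the block 5 passed, where 29.7% of all genes did, adding *Slc7a1* (1.18, adjusted p = 0.00288) and *Pts* (−0.59, adjusted p = 0.0373). With cytokines and NMMA 2 of 7 passed, where 8.34% of all genes did (6.15% higher, 2.19% lower). Between cytokines with and without NMMA 2 of 7 did, where 11% of all genes did (5.14% higher, 5.86% lower), and the calls split 500 higher and 570 lower, or 1554 and 240 with library totals.

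*Ass1* rose in δ-cells and macrophages. In macrophages it had 42.1 and 19.5 CPM untreated, 160 and 165 with cytokines and 199 and 70.9 with NMMA added, and libraries with cytokines lay above the untreated ones. The 8 β-cell markers in macrophages, with *Ins2* the highest, summed to 18540 and 43545 CPM untreated, 2280 and 6747 with cytokines, 4176 and 3920 with NMMA added and 26483 and 55043 with NMMA alone. By the insulin yardstick β-cell RNA would have brought at most 0.192 *Ass1* UMIs to any of these libraries, and how the change in β-cell RNA bears on the CPM values was not tested. The change with cytokines was 2.60 ± 0.59 (log2, SE, edgeR adjusted p = 0.04997), which was lost without either untreated library or either cytokine library, and with doublets removed (adjusted p = 0.0585). With NMMA added it was 2.29 ± 0.60 (adjusted p = 0.068 and 0.021 with the block, DESeq2 0.0145). In δ-cells *Ass1* had 25.6 and 18.6 untreated, 294 in the library with 12 cells, 77.0 in that with 8, and 35.0 and 43.5 with NMMA added. The change with cytokines was 3.62 ± 0.34 (adjusted p = 4.39e-07), and NMMA added to cytokines gave −2.82 ± 0.32 (adjusted p = 2e-05). Of the 59 *Ass1* UMIs in the 12 cells, 31 came from 1 cell, and 5 cells had any. With NMMA added 23 of 32 in replicate 2 came from 1 cell.

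*Asl* in δ-cells was above the untreated libraries in the library of 12 cells and close to them in that of 8, at 15.6 and 12.9 CPM untreated, 69.7 in the 12 cells with cytokines, 17.1 in the 8 cells, and 17.0 and 25.8 with NMMA added. The change was 2.18 ± 0.57 (log2, SE, edgeR adjusted p = 0.0234, DESeq2 0.499), lost without either untreated library and with the library of 8 cells put back (1.61, adjusted p = 0.129), and 8 of its 14 UMIs with cytokines came from 1 cell. In α-cells *Ass1* was at 0 untreated and at most 3.55 CPM with cytokines, and in endothelial cells its 9 UMIs with cytokines in replicate 2 all came from 1 cell.

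**Figure D3:**
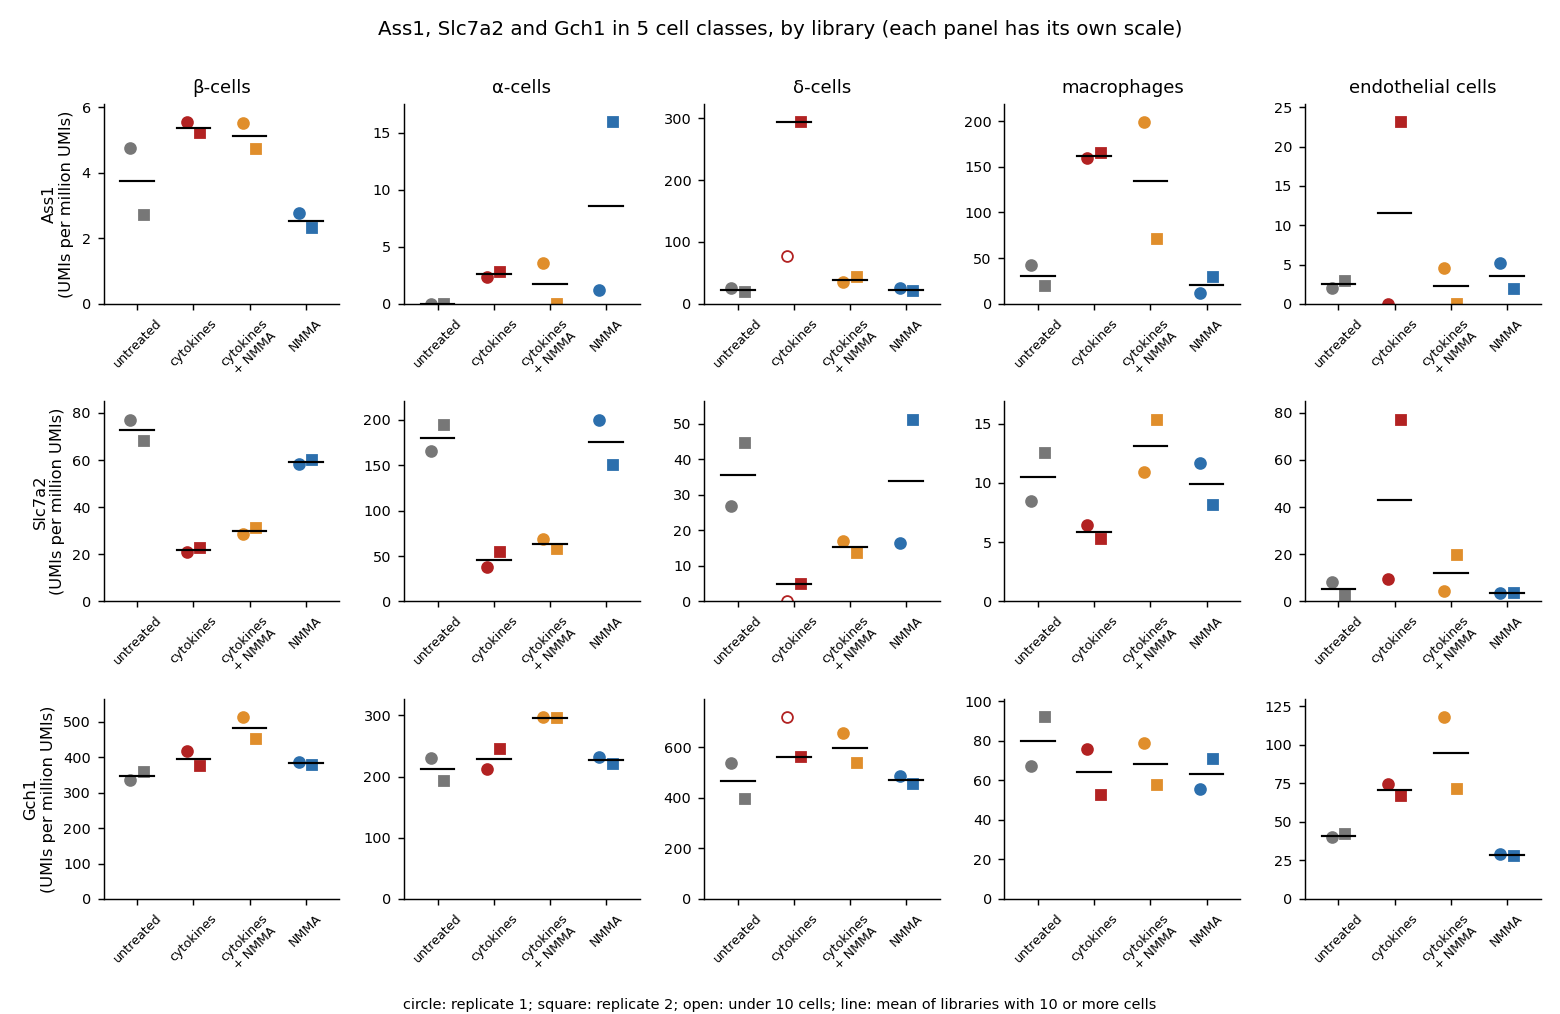
*Ass1*, *Slc7a2* and *Gch1* (rows) in CPM (vertical axes from 0, each panel with its own scale) in the 5 cell classes (columns) under the 4 conditions. Circles are replicate 1, squares replicate 2, open symbols sums of fewer than 10 cells and lines means of libraries with 10 or more cells. *Slc7a2* lies at 165 and 195 in untreated α-cells and at 37.5 and 54.6 in α-cells with cytokines.

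Of the 8 genes tested in δ-cells, 3 passed with cytokines, 3 higher and 0 lower, where 6.37% of 9548 genes did (4.5% higher, 1.86% lower), from 1 library of 12 cells. With cytokines and NMMA 1 of 8 passed (background 9%, with 6.27% higher and 2.72% lower), *Nos2*, and 3 did with the block (background with the block 16.6%), which added *Pts* (0.47, adjusted p = 0.0437) and *Slc7a2* (−1.16, adjusted p = 0.012). Between cytokines with and without NMMA 1 passed, *Ass1* (background 2.71%, with 1.07% higher and 1.64% lower). The median change with cytokines was 0.51 (log2) over the 8, against 0.01 over all genes.

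In macrophages 1 of 6 genes tested passed with cytokines, *Ass1*, where 4.62% of 5156 genes did (3.82% higher, 0.795% lower), and 2 passed with the block (background with the block 8.86%). With NMMA added *Nos2* passed (1 of 6, background 6.46%, with 5.16% higher and 1.3% lower), and with the block *Ass1* as well (2 of 6, background with the block 12%). Between cytokines with and without NMMA 1 of 6 passed, among 6 of all 5156 genes (0.116%, or 51 genes with the block).

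In endothelial cells 1 of 6 genes tested passed with cytokines (background 6.32% of 7514, with 4.6% higher and 1.72% lower) and 2 with NMMA added (background 6.73%, with 5.03% higher and 1.7% lower), *Nos2* in both and *Gch1* in the second. *Gch1* had 40.1 and 42.3 CPM untreated, 74.6 and 66.8 with cytokines and 118 and 71.4 with NMMA added. The groups with cytokines did not overlap the untreated one, and the changes were 0.94 ± 0.33 (log2, SE, edgeR adjusted p = 0.118) and 1.34 ± 0.31 (adjusted p = 0.013, DESeq2 0.223). The second was lost without either untreated library and without replicate 1 of cytokines with NMMA, the library with macrophage markers, and 9 of 16 *Gch1* UMIs with cytokines in replicate 1 came from 1 cell. Between cytokines with and without NMMA edgeR called 0 of 7514 genes, with 365 at an unadjusted p under 0.05, 3 by DESeq2 and 15 with the block. *Nos3*, the endothelial synthase, had 64.2 and 61.2 untreated, 23.3 and 30.8 with cytokines, 36.3 and 41.6 with NMMA added and 72.2 and 70.4 with NMMA alone, and did not pass.

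**Figure D4:**
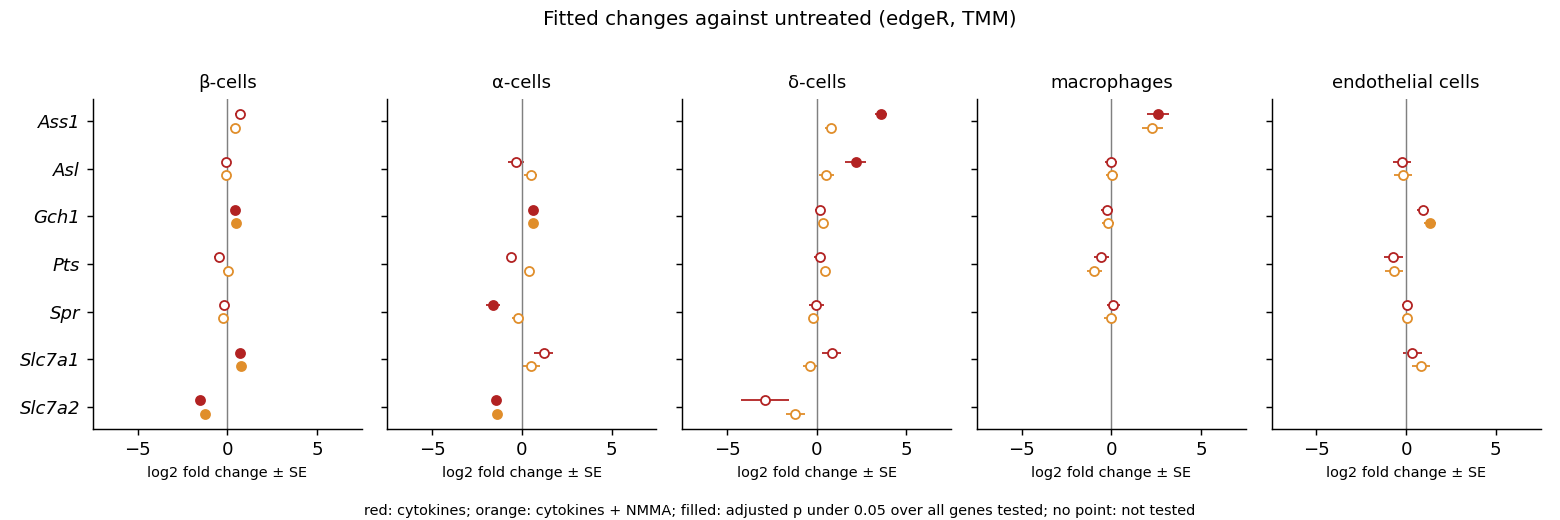
Fitted log2 fold change ± SE (horizontal axes) of 7 genes against untreated in the 5 cell classes, with cytokines (red) and with cytokines and NMMA (orange). Filled points have an adjusted p under 0.05 over all genes tested, and genes without a point were not tested. *Slc7a2* lies left of 0 in β-, α- and δ-cells, and *Ass1* in δ-cells lies at 3.62 with cytokines.

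The size of the cytokine effect was compared with that in β-cells directly, as an interaction. Between α- and β-cells 0 of 8 genes passed by edgeR, where 4.36% of all genes did, with 1 at an unadjusted p under 0.05 (*Spr*); for *Gch1* the difference was 0.27 (log2), with an interval of −0.10 to 0.64, and for *Spr* −1.32, with an interval of −2.14 to −0.49 (adjusted p = 0.0538). In δ-cells *Ass1* and *Asl* were called (2 of 8, background 2.99%), on the library of 12 cells. The library of 8 cells, not in the test, had *Asl* at 17.1 against 15.6 and 12.9 CPM untreated, and the *Asl* call was lost without untreated replicate 1. In macrophages *Nos2* and *Ass1* were called, with differences of −9.48 and 2.01 (2 of 8, background 4.37%), and the *Ass1* call was lost without either untreated library. In endothelial cells *Slc7a2* was called (1 of 8, background 6.27%), a call lost without cytokines replicate 2, which had 77.0 CPM against 9.33 in replicate 1.

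Levels between classes add the cofactor enzymes. Untreated *Gch1* in CPM was ordered δ-cells (538 and 397 CPM), β-cells (335 and 358), α-cells (230 and 193), macrophages (67.4 and 91.8) and endothelial cells (40.1 and 42.3), and no 2 neighbours overlapped. The order of the first pair turned with the scaling, since the difference of δ- from β-cells was −0.23 (log2, edgeR adjusted p = 0.358) with TMM and 0.43 (adjusted p = 0.00535) with library totals. Against β-cells it was lower by edgeR in α-cells (−1.28 ± 0.13, log2, SE, adjusted p = 1.2e-12), macrophages (−2.60) and endothelial cells (−4.12). In all, 4 of 8 genes differed between untreated α- and β-cells (background 30.4%), 3 of 8 for δ-cells (21.9%, 5 of 8 with library totals), 7 of 8 for macrophages (47.5%) and 4 of 8 for endothelial cells (54.9%). Among the 7 were *Nos2*, from 2 UMIs in macrophages and 1 in β-cells, and *Slc7a1*, from 5 UMIs in macrophages. The scaling mattered here: with library totals the median of all genes moved by 0.53, 0.60 and 0.73 for α-, δ- and endothelial cells, and *Pts* (adjusted p = 0.73) and *Slc7a1* (adjusted p = 0.149) no longer differed between α- and β-cells. With cytokines, the *Nos2* level was below that of β-cells in macrophages (−3.71 ± 0.33) and in endothelial cells (−1.31, or −0.36 and an adjusted p of 0.198 with library totals). In δ-cells its difference from β-cells was −0.79, which turned to 0.26 with library totals.

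The wider pathway was read from a list of 57 genes around the 8, among them other synthases, cofactor recycling, the urea cycle, further carriers, other uses of arginine and ornithine, nitric oxide receptors, and regulators known at the *Nos2* promoter. In β-cells with cytokines 14 of the 46 tested rose and 11 fell, with a median of 0.04 (log2) against 0.00 over all genes and the background of 46.2%. All 6 regulators of the list rose, among them *Irf1* (3.21 ± 0.13, edgeR adjusted p = 8.97e-07), an interferon regulatory factor, *Irf8* (6.84 ± 0.51) and *Nfkb1* (1.32 ± 0.15). *Irf1* had between 20.2 and 21.7 CPM untreated, between 166 and 167 with cytokines and between 289 and 300.0 with NMMA added.

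Of the 6 further carriers tested, 4 rose and 1 fell in β-cells with cytokines (background 23.8% higher, 22.4% lower). *Slc3a2*, the heavy chain that partners *Slc7a5*, rose by 1.40 ± 0.22 (log2, SE, edgeR adjusted p = 0.00111) and *Slc7a5* by 0.66 ± 0.12, while *Slc3a1*, the heavy chain of the cystine and dibasic amino acid carrier, fell by 2.56 on the log2 scale.

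Single listed genes that use arginine or its products are given next, with no count over their group. *Sat1*, which acetylates polyamines for breakdown, rose by 2.46 ± 0.21 (log2, SE, edgeR adjusted p = 3.85e-05) in β-cells with cytokines, and *Gatm*, which uses arginine to make the precursor of creatine, fell by 2.13 on the log2 scale (adjusted p = 9.03e-05). *Odc1*, which turns ornithine into putrescine, had between 40.4 and 66.1 CPM untreated, between 68.1 and 83.1 with cytokines and between 182 and 255 with NMMA added. It rose by 2.06 ± 0.26 from untreated with cytokines and NMMA (adjusted p = 0.000811) and was 1.32 ± 0.26 above cytokines alone (adjusted p = 0.0117). *Qdpr*, which recycles tetrahydrobiopterin, fell by 0.54 with cytokines (log2 −0.54, adjusted p = 0.0124).

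Of the nitric oxide receptors and effectors tested in β-cells, 0 of 6 rose and 4 fell with cytokines (background 23.8% and 22.4%), among them *Prkg2*, a cGMP-dependent kinase (−1.50 ± 0.30, log2, SE, edgeR adjusted p = 0.00356), and *Pde5a*, which breaks down cGMP (−0.70 ± 0.13, adjusted p = 0.00222). *Pde5a* was higher with NMMA added than with cytokines alone, by 0.75 ± 0.13 (adjusted p = 0.00686). With cytokines and NMMA 11 of 46 listed genes were higher than untreated and 6 lower (background 12.9% and 9.73%), and between cytokines with and without NMMA 8 were higher with NMMA and 3 lower (background 10.4% and 8.99%), or 13 and 10 with the replicate block (background 20.3% and 20.2%).

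Of the 6 regulators of the list, 6 rose with cytokines in α-cells, 3 in δ-cells, 4 in macrophages and 3 in endothelial cells. A regulator that did not pass the low-count filter of a class was not tested there. Of the whole list, 10 of 35 genes tested in α-cells rose and 6 fell with cytokines (background 13.4% and 8.59%), with *Irf1* at 3.91 ± 0.26 (log2, SE, edgeR adjusted p = 4.98e-09) and *Sat1* at 2.54 ± 0.28. In δ-cells 4 of 37 rose and 0 fell (background 4.5% and 1.86%). Among the 4 was *Nos1*, the neuronal synthase, whose 55 UMIs in the library with cytokines came from 2 of 12 cells, against 0 untreated. In macrophages 5 of 27 rose and 0 fell (background 3.82% and 0.795%), with *Irf1* at 4.22 ± 0.28, and in endothelial cells 3 of 34 rose and 2 fell (background 4.6% and 1.72%), with *Irf1* at 4.47 ± 0.30 and *Cygb*, a globin that removes nitric oxide, at −3.37 ± 0.56 (adjusted p = 0.000914). NMMA alone gave 0 calls in the list in any class by edgeR.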

How the data were processed

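Islet cells were profiled by droplet RNA sequencing in 8 libraries (4 conditions, 2 replicates). The authors deposited raw UMI counts per gene and barcode from Cell Ranger, version 3.0.0 in the headers for replicate 1 and 6.0.0 for replicate 2, and the build in the submitters' processing notes is mm10. The labels and the methods name different versions of the 3′ kit. The genes listed in both replicates (30406) were used. The genes, the wider list and the tests were chosen with earlier results of these data known. The set has 10 genes and the list 58, of which 2 and 1 are not reported here.

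Barcodes with at least 200 genes, at most 5500 (replicate 1) or 6500 (replicate 2) genes and at most 10% mitochondrial UMIs were kept, as in the study. Counts were clustered (scanpy 1.11.5, leidenalg 0.10.2; 2000 variable genes without the set or the list, 30 components, 20 neighbours), and clusters were named from fixed markers, so that classes may differ from the study's. Doublets (327 cells, 3.01%) were removed only as an alternative. UMI counts were summed per class and library, with at least 10 cells, and the sums were fitted with edgeR 4.0.16 under R 4.3.3 (robust quasi-likelihood F test after filterByExpr and TMM scaling, all 4 conditions in 1 fit); SE is the log2 change over the square root of F. Differences between classes, and between β-cells with and without *Nos2*, had the library as a block. Members were named in every class, and of the list genes that passed, at most 20 by adjusted p in β-cells and 6 in another class, with *Nos3* added after its values were seen.

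Same-numbered libraries come from 1 pool, by the study's methods. Their deviations from the condition means correlated with a median r of 0.666 in β-cells (0.612 to 0.701), 0.388 in macrophages, 0.342 in α-cells, 0.311 in endothelial cells and 0.337 in δ-cells. There were 2 pools. The p values of the fits without a block rest on the spread between the libraries of a condition, which differ in pool and in all that differs between libraries. Fits with the replicate or the library as a block take that difference out and rest on the spread that remains. Ratios to 1 to 3 UMIs, bounds (3 UMIs) and Clopper-Pearson intervals (95%) cover counting error only. Alternatives were library totals, DESeq2 1.42.0, no low-count filter, the replicate block, doublets removed, no minimum of cells, no thinning and each library left out. On simulated data, 46.0% of 2-fold changes were recovered in β-cells, 12.4% in α-cells, 6.63% in endothelial cells, 4.19% in macrophages and 1.05% in δ-cells, so a 2-fold change outside β-cells can easily miss the threshold. For the difference in cytokine effect from β-cells the recovery was 1.07% (α), 0% (δ), 0.515% (macrophages) and 0.526% (endothelial cells). The sequences are from RefSeq and the study's primer list.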

Additional observations from a re-analysis of the deposited data

Results flagged for a closer look

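There were 5 differences from β-cells in the size of a gene's cytokine effect (edgeR interaction test, log2, with the library as a block). In δ-cells *Ass1* differed by 2.90 ± 0.47 (SE, adjusted p = 3.16e-07) and *Asl* by 2.39 ± 0.60 (adjusted p = 0.00472), both from 1 library of 12 cells with cytokines in which 1 cell held 31 of 59 and 8 of 14 UMIs, and the *Asl* call was lost without untreated replicate 1. In macrophages *Ass1* differed by 2.01 ± 0.45 (adjusted p = 0.000476), and both macrophage libraries with cytokines lay above both untreated ones, but the call was lost without either untreated library. *Nos2* in macrophages differed by −9.48 ± 1.99 (adjusted p = 0.0004), a value that rests on 1 untreated UMI in β-cells and 2 in macrophages, so that its size is not well measured. *Slc7a2* in endothelial cells differed by 5.07 ± 0.57 (adjusted p = 2.74e-16), where cytokines replicate 2 had 77.0 CPM from 30 UMIs and replicate 1 had 9.33, and the call was lost without replicate 2. Whether single cells or these small libraries set the differences was not tested.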

How the results depend on the processing

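Over 392 alternative fits of 33 comparisons, 323 counts of called genes were within 1.5 times the main count, and of 811 alternative values of 71 calls 710 kept direction and threshold, 99 missed the threshold and 2 reversed. With library totals the counts became 2 (β-cells, NMMA added to cytokines, from 1), 1 (α-cells, cytokines with NMMA, from 2), 5 (untreated levels of δ- against β-cells, from 3) and 1 (α- against β-cell effect, from 0), and *Nos2* in δ- against β-cells with cytokines and *Slc7a1* in endothelial against untreated β-cells reversed, to 0.26 and 0.017. With DESeq2 they became 1 (α-cells, NMMA added, from 2), 2 (macrophages, cytokines with NMMA, from 1), 0 (macrophages, NMMA added, from 1) and 1 (endothelial cells, cytokines with NMMA, from 2). With no low-count filter they became 6 (α-cells, cytokines, from 3), 1 (α-cells, NMMA alone, from 0), and 2 each for δ-cells with cytokines and NMMA, NMMA added in δ-cells, macrophages with cytokines, macrophages with cytokines and NMMA, and endothelial cells with cytokines, from 1. With doublets removed they became 1 (α-cells, cytokines with NMMA and NMMA added, from 2 each) and 0 (macrophages, cytokines, from 1). The cause was not tested.

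With the replicate block, which pairs libraries of 1 pool, the counts became 2 in β-cells for NMMA added to cytokines, 2 for NMMA alone (from 0), 5 in α-cells for cytokines (from 3), 3 in δ-cells for cytokines with NMMA and 2 for NMMA added (from 1 each), 2 in macrophages for cytokines and for cytokines with NMMA (from 1 each), and 2 for levels of δ- against β-cells with cytokines (from 5). It also called *Ass1* (α-cells) and *Spr* (endothelial cells) in levels against untreated β-cells (adjusted p = 0.0372 and 0.0307), ended the calls of *Nos2*, *Pts* and *Slc7a2* in δ-cell levels with cytokines, and changed no call of the 8 genes other than these and those given with a blocked value beside a result.

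Without thinning, the share of cells with *Nos2* was 56.4% (β-cells, cytokines), 69.9% (cytokines with NMMA), 0.0749% (NMMA), 77.0% (δ-cells, cytokines with NMMA), 11.7% and 52.9% (macrophages, cytokines without and with NMMA), and 21.9%, 44.2% and 2.003% (endothelial cells, cytokines, cytokines with NMMA, NMMA).

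Leaving out 1 library at a time gave counts of 3 to 4 each (β-cells, cytokines without and with NMMA), 1 to 3 and 1 to 1 (α-cells, cytokines with NMMA, NMMA added), 1 to 2 (δ-cells, NMMA added), 0 to 2, 1 to 2 and 0 to 1 (macrophages, cytokines, cytokines with NMMA, NMMA added), 1 to 2 each (endothelial cells, cytokines without and with NMMA), 2 to 5, 2 to 3 and 4 to 7 (untreated levels of α-, δ-cells and macrophages), 3 to 5 (δ-cell levels with cytokines), 0 to 1 (α), 1 to 2 (δ), 1 to 2 (macrophages) and 0 to 1 (endothelial) for differences in effect, and 0 to 1 for the split by *Nos2*. Where an arm kept 1 library, its spread was assumed to be that of the others. Sums held few UMIs of these genes in δ-cells with cytokines, macrophages and endothelial cells, which limits what is said of them.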

Other observations

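The genes whose levels ran most like *Nos2* over 39 sums of class and library (13164 genes, Pearson r of log2 levels, a description over sums that share libraries) were *Gbp7* and *Igtp* (r = 0.94 each), then *Tgtp1*, *Iigp1* and *Gbp4*, which encode interferon-inducible GTPases. For *Ass1* they were *Tmem221* (0.81) and *Lrrc3* (0.78), and for *Gch1*, *Chgb* (0.95), which encodes a protein of the secretory granule.

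In α-cells given NMMA alone, 20 of 22 *Ass1* UMIs in replicate 2 came from 1 cell.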
